A study of Homo sapiens with 14 samples.

Results

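The keratin gene clusters were read here as 73 regions of open chromatin, chosen by position alone from the 65774 regions of a table of ATAC-seq counts on the hg38 build. The type II cluster, for which regions starting between chr12:52150000-52980000 were taken, held 50 regions, and the type I cluster, taken between chr17:40650000-41640000, held 23. Each region was placed in a part of the clusters by its nearest gene: 14 regions lay nearest a basal or activation keratin, 17 nearest a luminal (simple) keratin, 15 nearest a hair keratin or hair keratin-associated protein, 1 nearest an inner root sheath keratin, 8 nearest a differentiation keratin, and 18 nearest a gene that is no keratin. All 73 regions passed the filter on low counts.

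ATAC-seq uses a transposase that inserts sequencing adapters into accessible DNA, so the count in a region measures how open the chromatin is there, not how much RNA its gene makes. The cells were SUM149PT, a long-established human line of inflammatory breast cancer negative for the oestrogen and progesterone receptors, and every group came from it and had no treatment. The 7 groups were the line itself (Parental), the clone E, the clones EM1, EM2 and EM3, and the clones M1 and M2, each with 2 libraries. What the letters mean is not in the labels. The title places the study in intermediate states of epithelial-mesenchymal transition, the change of epithelial cells into motile, fibroblast-like cells. Each of the 6 clone names stands for 1 clone, so a difference may belong to that clone alone. No label says whether a group's libraries are from separate cultures, so p-values cover only the spread between these libraries, which may be technical.

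Keratins are the intermediate filament proteins of epithelial cells. A type II keratin pairs with a type I keratin to build the filament, and the genes of each type lie side by side in a cluster. In the breast, KRT5 and KRT14 mark basal cells, while KRT8, KRT18 and KRT19 mark luminal cells. KRT6A, KRT6B and KRT16 are induced in wounded or rapidly dividing epithelium, and hair keratins such as KRT81 and KRT34 build the hair shaft. KRT18 is the exception in position: this type I gene lies at the edge of the type II cluster, beside its partner KRT8.

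Levels are CPM, the counts in a region divided by the library's total in units of 1000000 counts and scaled by TMM, a correction for library composition, and are given with the SD over 2 libraries. Log2 changes and their SE came from edgeR's quasi-likelihood test over all 14 libraries, with p-values adjusted by the Benjamini-Hochberg method over all 65771 regions tested. Regions with an adjusted p under 0.05 are named called. The shallowest library, E replicate 1, held 8138944 counts and the deepest, EM3 replicate 1, 16786823. E replicate 1 stood apart. At 12 regions without counts in Parental, EM1, EM2, EM3 and M1 it held 528 counts, or 21.12% of the M2 level (exact 95% interval 19.36 to 23, counting error only), where E replicate 2 held 1.774%. Results for E are therefore given with and without that library.

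The sequences before 3 keratin gene starts are shown because a member region overlaps each of them and each changed in a clone. They are the 250 bases before the start as RefSeq gives it (GRCh38.p14, the hg38 build), all on the minus strand, 5′ to 3′. The KRT5 sequence is chr12:52520395-52520644, of which 250 bases lie in a member region. The KRT8 sequence is chr12:52926470-52926719, with 182 bases in a member region. This window lies inside the gene as RefSeq draws it, so it need not be the main KRT8 start, which was not determined. The KRT34 sequence is chr17:41382307-41382556, with 119 bases in a member region. Capitals mark the matches among 8 motifs searched on both strands.
KRT5: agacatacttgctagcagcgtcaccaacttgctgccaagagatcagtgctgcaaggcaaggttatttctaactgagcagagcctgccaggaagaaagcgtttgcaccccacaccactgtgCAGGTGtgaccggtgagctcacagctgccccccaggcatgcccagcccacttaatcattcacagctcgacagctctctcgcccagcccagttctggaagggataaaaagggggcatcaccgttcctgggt
KRT8: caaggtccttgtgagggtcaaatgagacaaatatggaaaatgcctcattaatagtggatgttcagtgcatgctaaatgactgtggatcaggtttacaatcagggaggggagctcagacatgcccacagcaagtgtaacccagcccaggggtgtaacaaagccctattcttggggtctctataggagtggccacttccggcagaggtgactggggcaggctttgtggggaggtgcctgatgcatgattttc
KRT34: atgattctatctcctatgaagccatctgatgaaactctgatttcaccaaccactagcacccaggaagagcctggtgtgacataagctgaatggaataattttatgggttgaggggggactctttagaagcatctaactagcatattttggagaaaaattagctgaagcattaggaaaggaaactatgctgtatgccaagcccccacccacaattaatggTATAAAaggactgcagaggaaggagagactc
The KRT5 capitals are CAGGTG, the E-box bound by ZEB and SNAI factors, 130 to 125 bases before the start. It occurs in 17.5% of all 35116 promoter windows in the table, each searched over the 250 bases before its start. The KRT34 capitals are TATAAA, the TATA box, 31 to 26 bases before the start, present in 10.7% of all windows and in 50 of the 71 windows of keratin and keratin-associated genes. The KRT8 sequence held none of the 8. The other motifs were TGANTCA (AP-1, 6.6% of windows), AACNNGTT (Grainyhead, 3.0%), GGAATG (TEAD, 11.9%), TGTGGT (RUNX, 11.0%), GCCNNNGGC (AP-2, 19.8%) and GGGCGG (SP and KLF factors, 42.6%). A match describes letters and shows no binding. The table matched 34 keratin genes. KRT6A, KRT6B, KRT14, KRT18 and KRT19 were not among them.

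Accessibility fell in both M clones at the start of KRT5 and at 1 end each of KRT6A and KRT6B. It also fell in both at a KRT8 promoter window inside the gene and beside KRT19. The region shared by KRT8 and KRT18 stayed open. The promoter window of KRT34, a hair keratin, rose in M1 (log2 change 2.66) and rose further in M2 (4.88). It was also called higher in EM3 (3.11) and E (2.17), calls that were lost on leaving out 1 library. EM2 had 7 regions called, all lower (9.59%, beside 9.19% of all regions tested). They lay at KRT5, KRT8, KRT14, KRT19, KRT34, KRT80 and KRTAP4-9. The calls at KRT5, KRT19, KRT80 and KRTAP4-9 were lost on leaving out 1 library. In EM1 no region of the clusters was called (background 0.628%). Among all 7 groups, 52 of the 73 regions differed (71.2%), beside 78.6% of all regions tested, so the share that differed was not above the background.

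**Figure D1:**
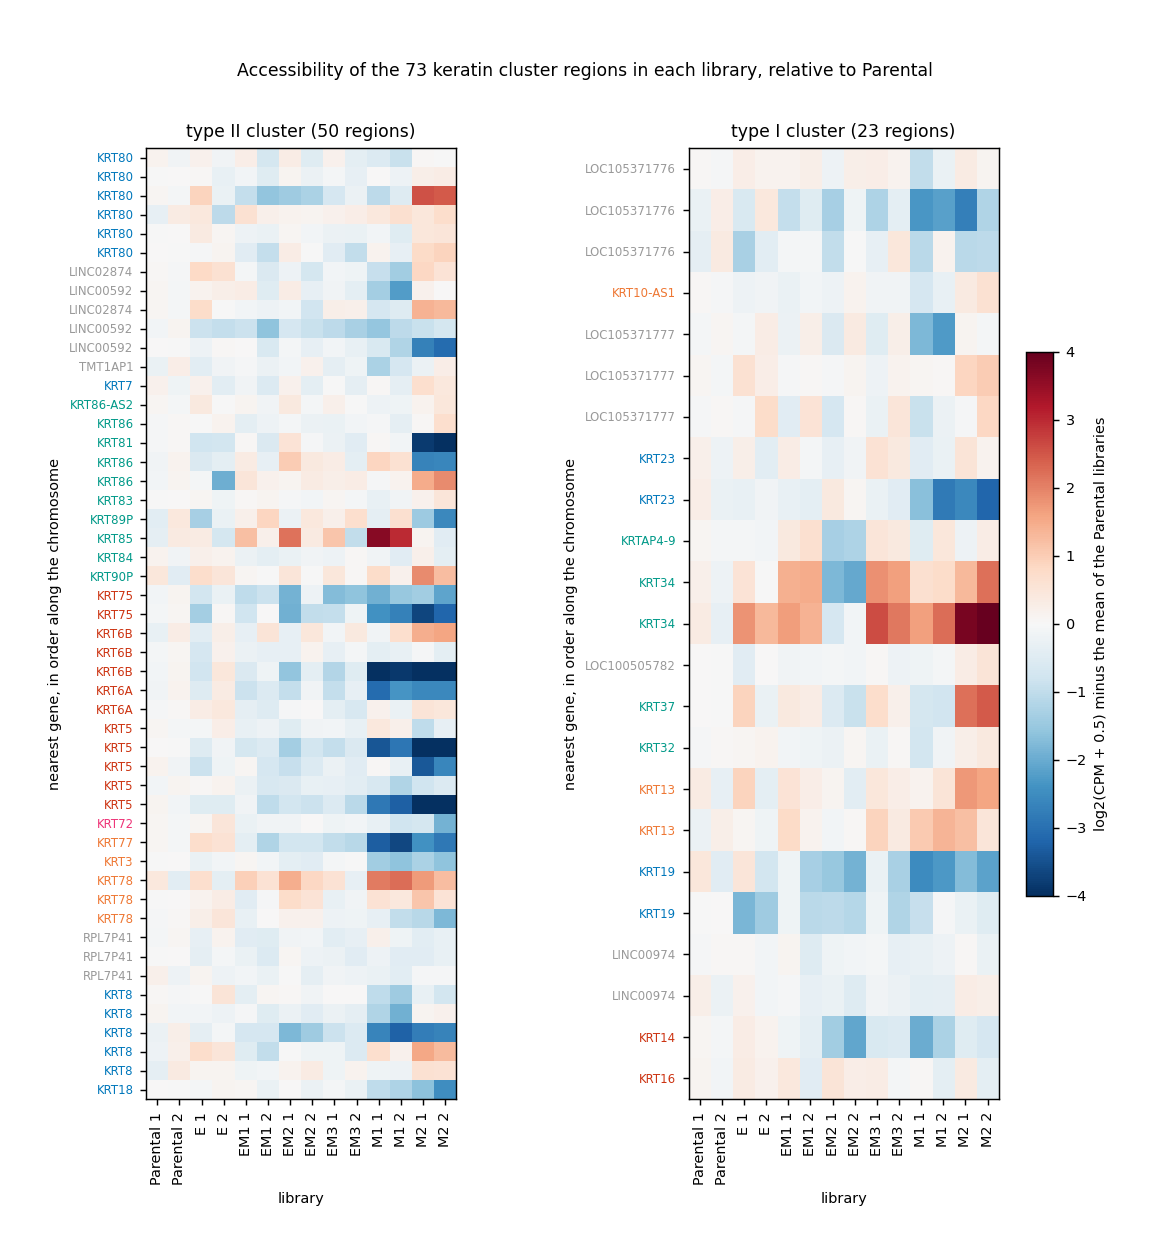
Accessibility of all 73 regions in the 14 libraries, as log2(CPM + 0.5) minus the mean of the Parental libraries, in order along each cluster and named by the nearest gene; label colours are the parts (red basal, blue luminal, green hair, pink inner root sheath, orange differentiation, grey no keratin). Blue bands in the M1 and M2 columns mark rows of KRT75, KRT6B, KRT6A, KRT5 and KRT77, though not every row of KRT6B, KRT6A and KRT5. KRT81 and a KRT86 row are also blue in M2, and red marks KRT34.

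Against Parental, M1 had 28 of 73 regions called (38.4%; background 42.4%). Of these 4 were higher (background 19% of all regions) and 24 lower (background 23.4%), and the median log2 change was -0.39, against 0.01 over all regions. M2 had 43 called (58.9%; background 67%), 21 of them higher (background 32.2%) and 22 lower (background 34.9%), with a median of 0.01 against -0.01. M2 against M1 had 42 called (57.5%; background 56.3%), 31 higher (background 27.2%) and 11 lower (background 29.1%). EM2 had 7 called (background 9.19%), all 7 lower (background 6.17% lower and 3.02% higher). E had 3 called (background 11.6%), 1 higher (background 5.26%) and 2 lower (background 6.31%). EM3 had 3 called (background 3.11%), 2 higher (background 1.85%) and 1 lower (background 1.26%). EM1 had 0 called by edgeR (background 0.628%, with 0.341% higher and 0.287% lower). In EM1, 12 of the 73 regions had an unadjusted edgeR p under 0.05, beside 10.3% of all regions. DESeq2 called 3 in EM1, for which the share over all regions is not given here. The 6 clones share the Parental libraries, so their comparisons with Parental are not independent of each other.

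The direction of the M2 counts depended on the scale. The 10 Mb window that holds the type II cluster had a median log2 change of 0.65 in M2 over its 347 regions, and that of the type I cluster 0.38 over 403 regions, where M1 had -0.06 and 0.02. With the median of each window removed, M2 had 10 regions higher and 32 lower with a median of -0.47. M2 against M1 then had 11 higher and 16 lower. In that run 62.7% of all regions were called in M2, 49.5% in M2 against M1 and 40.6% in M1. These backgrounds, not split by direction, hold for every count with the windows removed. Scaling by library totals gave 15 higher and 28 lower in M2. M1 had 4 higher and 24 lower with the windows removed, 27 of them the regions called before. What sets the level of the windows was not tested.

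**Figure D2:**
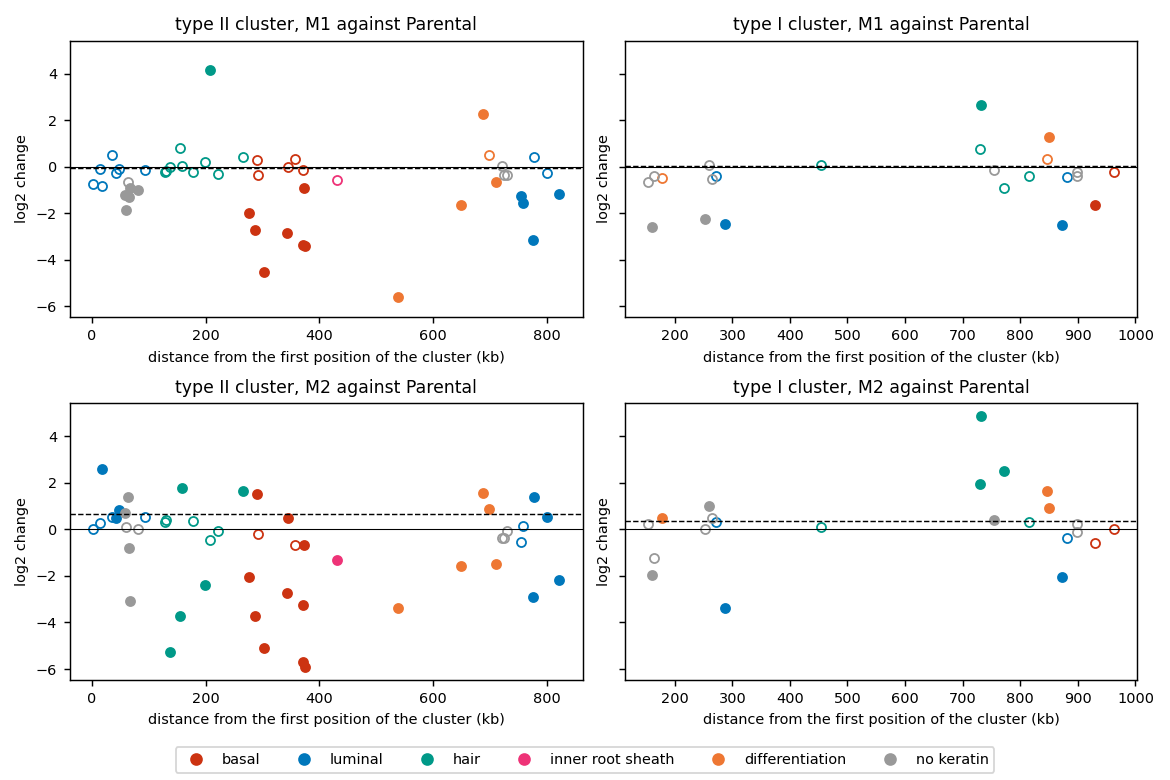
Log2 change against Parental of each region by its distance in kb from the first position of the cluster, for M1 (top) and M2 (bottom); filled points were called, open points were not, and the dashed line is the median of the 10 Mb window. The red basal points of the type II cluster reach -4.52 in M1 and -5.91 in M2.

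The basal part held the lowest values of the type II cluster in M2. Of its 14 regions, 8 fell and none rose in M1 (57.1% called; background 42.4%; median log2 change -1.29), and 8 fell and 2 rose in M2 (median -1.36; 11 fell and 1 rose with the windows removed). The share called in either direction in M2, 71.4%, was near the background of 67%. The backgrounds by direction were 23.4% lower in M1, and 32.2% higher and 34.9% lower in M2. At the start of KRT5, the basal partner of KRT14, region chr12:52520301-52520681 measured 21.9 and 21.6 CPM in the Parental libraries, 15.2 and 19.9 in E, 13.1 and 14.6 in EM1, 8.17 and 12.9 in EM2, 11.0 and 14.3 in EM3, 1.60 and 2.51 in M1, and 0.344 and 0.459 in M2. Both Parental libraries were above every clone library, and both M2 libraries were below every other. The log2 change was -3.36 ± 0.32 (SE) in M1 (edgeR adjusted p 3.249e-06) and -5.69 ± 0.40 in M2 (1.134e-07), and M2 lay below M1 by a log2 change of -2.33 ± 0.46 (0.0008428). In EM2 the change was -1.04 ± 0.28 (0.03161), a call that was lost without EM2 replicate 1, Parental replicate 1 or Parental replicate 2.

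The other KRT5 regions did not move together. The region chr12:52523858-52524165, 3464 bp from the gene, fell by 3.43 in M1 and by 5.91 in M2 on the log2 scale. Another, 1395 bp from the gene, fell in M2 only among these tests, with -3.24 (adjusted p 1.326e-05) against -0.14 in M1 (0.7797), and M2 was below M1 by -3.11 (3.352e-05). At 1962 bp the change was smaller, -0.92 in M1 and -0.69 in M2, from 38.3 ± 4.27 CPM in Parental to 20.4 ± 5.63 in M1 and 23.8 ± 3.15 in M2. At the KRT5 region on the other side (chr12:52507042-52507391), 7184 bp from the gene, no clone was called against Parental. M2 lay below M1 there by a log2 change of -1.01 (adjusted p 0.01577), and with the windows removed M2 was called against Parental (-1.31, 0.002834).

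KRT6A and KRT6B, keratins of activated epithelium, lost the region at 1 end of each gene in both M clones. At KRT6B (chr12:52451919-52452520) the libraries gave 22.1 and 26.3 CPM in Parental, 13.8 and 33.5 in E, 15.9 and 21.2 in EM1, 7.71 and 18.2 in EM2, 10.5 and 17 in EM3, 0.851 and 1.19 in M1, and 0.802 and 0.611 in M2. The M libraries were all below 2 CPM and every other library was above 7. The log2 change was -4.52 ± 0.55 in M1 (adjusted p 2.307e-05) and -5.11 ± 0.59 in M2 (7.31e-06). At KRT6A (chr12:52493164-52493621) the levels were 21.6 ± 2.76 CPM in Parental, 2.95 ± 1.16 in M1 and 3.21 ± 0.00229 in M2, with changes of -2.84 and -2.75. Its neighbour 1139 bp away stayed at 27.4 ± 5.76 CPM in M1 and stood at 39.5 ± 1.35 in M2, against 27.9 ± 0.981 in Parental.

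KRT75, a keratin of the hair follicle companion layer that was counted here in the basal part, had 2 regions and both fell in both M clones. The region 1642 bp outside the gene measured 20.8 and 23.3 CPM in Parental, 5.47 and 10.9 in EM2, 3.72 and 2.97 in M1, and 1.26 and 1.99 in M2, and changed by -2.73 in M1 and -3.72 in M2. The EM2 libraries lay between Parental and M1, but EM2 was not called there. In the other direction, the region 5176 bp from KRT6B rose in M2 by 1.52 ± 0.40 (adjusted p 0.004025), with both M2 libraries (29.6 and 32.0 CPM) above all others.

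KRT14, the type I partner of KRT5, had no region within 1 kb of an end. Its nearest region, chr17:41579552-41579926 and 2353 bp outside the gene, measured 16.1 and 14.6 CPM in Parental, 18.8 and 17 in E, 13.5 and 11.5 in EM1, 5.55 and 3.27 in EM2, 9.90 and 10.3 in EM3, 3.51 and 6.08 in M1, and 10.9 and 9.55 in M2. EM2 and M1 were low, with changes of -1.80 ± 0.30 (adjusted p 0.00251) and -1.65 ± 0.30 (0.000533). M2 lay above M1 by 1.06 ± 0.30 (0.008657) and was not called against Parental (-0.59, 0.08262). With the windows removed M2 was called against Parental (-0.95, 0.01178). The difference between M2 and M1 was not called with the windows removed (0.70) or without M1 replicate 1 (0.69). The single region of KRT16, a type I activation keratin, measured 2.68 ± 0.312 CPM in Parental and was called in no comparison. KRT15, KRT17 and KRT6C, also basal or activation keratins, had no region within 1 kb of an end.

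**Figure D3:**
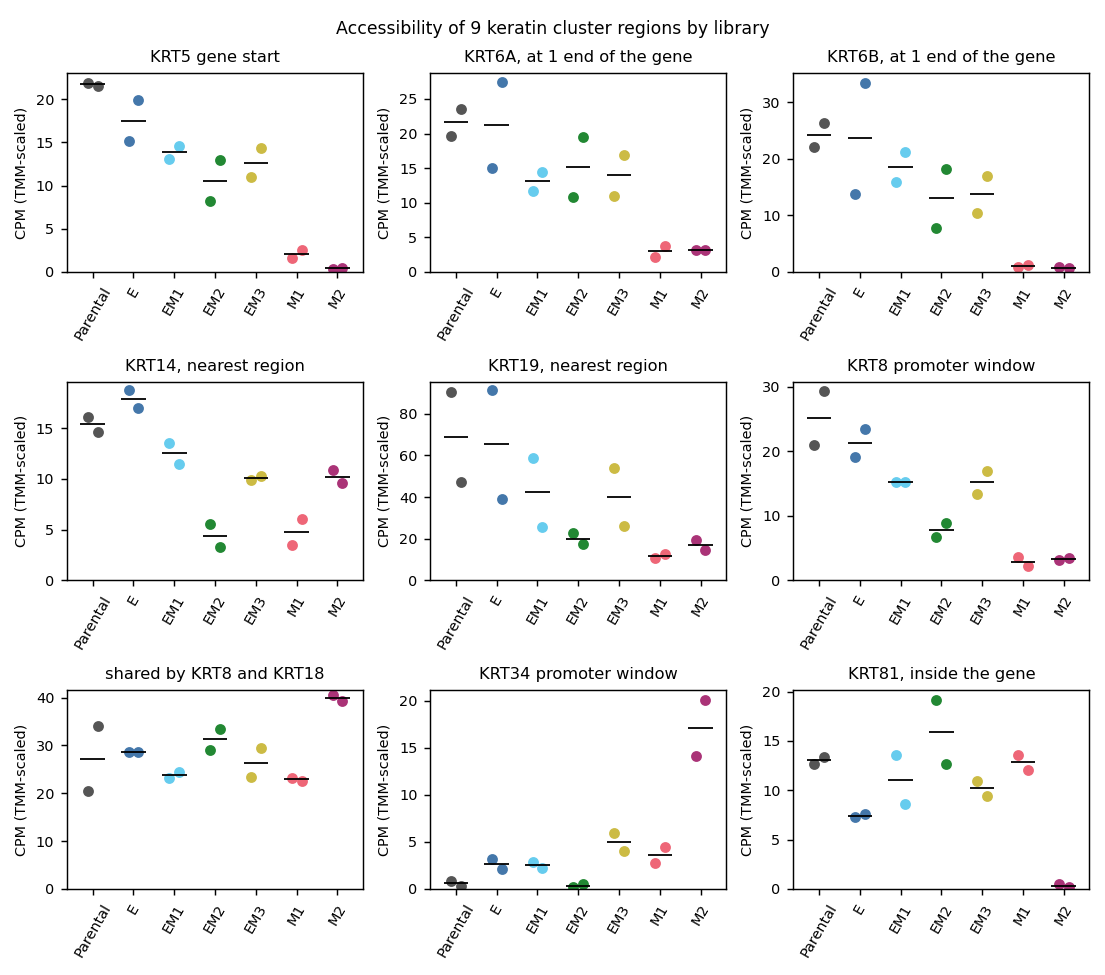
TMM-scaled CPM of 9 regions in each library (points, replicate 1 left and replicate 2 right) with the group mean (bar). The M1 and M2 points sit near the axis at KRT5, KRT6A, KRT6B and the KRT8 promoter window, whereas the M2 points are the highest at KRT34 and at the region shared by KRT8 and KRT18.

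Among the luminal keratins, accessibility fell at single regions and held at others of the same gene. In M1, 6 of the 17 luminal regions fell and none rose (median -0.42). In M2, 5 rose and 4 fell (median 0.27), or 2 rose and 5 fell with the windows removed (median -0.35). The shares called in either direction, 35.3% in M1 and 52.9% in M2, were below the backgrounds of 42.4% and 67%. All the M1 calls were falls, and 35.3% was above the background of falls alone, 23.4%. In M2 the backgrounds by direction were 32.2% higher and 34.9% lower. KRT8, the partner of KRT18, had 5 regions. Its promoter window region (chr12:52926164-52926651), inside the gene as RefSeq draws it, measured 21.0 and 29.4 CPM in Parental, 19.2 and 23.5 in E, 15.3 and 15.3 in EM1, 6.78 and 8.96 in EM2, 13.4 and 16.9 in EM3, 3.62 and 2.18 in M1, and 3.21 and 3.52 in M2. EM2, M1 and M2 were below all other libraries, without overlap. The log2 changes were -1.68 ± 0.27 in EM2 (adjusted p 0.002121), -3.15 ± 0.30 in M1 (3.536e-06) and -2.90 ± 0.30 in M2 (2.602e-06), and all 3 kept their call under every alternative run.

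The next KRT8 region, 436 bp further on, went the other way in M2, from 27.5 ± 5.59 CPM in Parental to 72.6 ± 9.99 in M2, a rise of 1.40 ± 0.23 (adjusted p 0.0001348), with M1 at 37.2 ± 9.18 and not called. The ratio of counts between the 2 regions depends on no scaling. Its mean log2 was -0.13 in Parental, -0.96 in E, -0.09 in EM1, -1.69 in EM2, -0.47 in EM3, -3.69 in M1 and -4.41 in M2. The pair was chosen after its values were seen, so the ratio has no test. Inside KRT8, 2 more regions fell in M1 and were called in no other clone, from 53.7 and 46.2 CPM in Parental to 21.6 and 12.8 in M1 at chr12:52907752-52908435 (log2 change -1.56, adjusted p 8.452e-05) and by 1.28 at chr12:52904961-52905378. M2 lay above M1 at both, by 1.71 ± 0.22 (3.551e-05) and by 0.74 ± 0.28 (0.03648). With the windows removed, the region chr12:52904961-52905378 was called lower in M2 as well (-1.15, 0.003614), and M2 did not differ from M1 there beyond the spread (0.03, 0.9404).

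The region shared by the ends of KRT8 and KRT18 (chr12:52949605-52950178) stayed open in every library. It measured 20.5 and 34.0 CPM in Parental, 28.6 and 28.7 in E, 23.2 and 24.4 in EM1, 29.1 and 33.4 in EM2, 23.4 and 29.4 in EM3, 23.3 and 22.7 in M1, and 40.5 and 39.4 in M2. M2 was above Parental by 0.55 ± 0.21 (adjusted p 0.03231), but the difference was -0.05 with the windows removed. A region 18711 bp outside KRT18 fell by 1.19 in M1 and by 2.17 in M2.

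**Figure D4:**
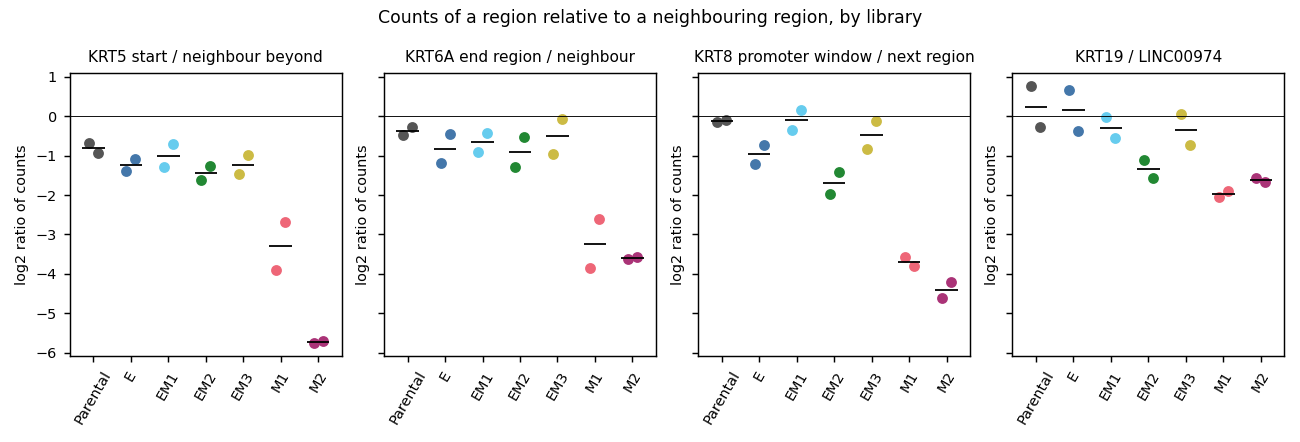
Log2 ratio of counts between a region and a neighbour in the same library, by group (points are libraries, bars are means; 0 means equal counts). M1 and M2 lie at -3.29 and -5.73 for KRT5 and at -3.69 and -4.41 for the KRT8 promoter window, while Parental lies at -0.81 and -0.13.

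At KRT19, a type I keratin of luminal cells, the replicates lay far apart. The region 672 bp outside it (chr17:41521693-41522945) gave 90.5 and 47.3 CPM in Parental, 91.4 and 39.3 in E, 58.6 and 25.9 in EM1, 22.6 and 17.5 in EM2, 54.0 and 26.3 in EM3, 11.0 and 12.9 in M1, and 19.2 and 14.4 in M2. Replicate 1 lay above replicate 2 in every group but M1, and the libraries of EM1 and EM3 overlapped those of Parental. The fall was -2.52 ± 0.49 in M1 (adjusted p 0.0009891) and -2.04 ± 0.48 in M2 (0.002116). In EM2 it was -1.78 ± 0.47 (0.03212), a call lost without Parental replicate 1 or either EM2 library. Another region, 1821 bp outside KRT19, was lower in E (3.15 and 4.39 CPM against 12.4 and 12.7 in Parental, change -1.73, adjusted p 0.02328). That call was lost without E replicate 1, Parental replicate 1 or Parental replicate 2.

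KRT80, KRT7 and KRT23 are the remaining luminal genes with regions. At KRT80, a widely expressed type II keratin, the region 340 bp outside the gene measured 5.71 and 5.01 CPM in Parental, 10.3 and 4.39 in E, 1.70 and 1.95 in EM2, 2.34 and 3.57 in M1, and 33.3 and 31.5 in M2. M2 rose by 2.59 ± 0.38 (adjusted p 4.992e-05), and the higher E value came from the library that carried M2-like counts. The region at an end of KRT80 rose by 0.48 in M2, or -0.13 with the windows removed. KRT7, a keratin of simple epithelia, had its region inside the gene at 43.5 ± 7.81 CPM in Parental, 39.0 ± 7.36 in M1 and 63.1 ± 7.95 in M2, called only in M2 against M1 (0.70, adjusted p 0.03187; -0.01 with the windows removed). At KRT23, a type I keratin, the region inside the gene near its end fell from 11.7 ± 3.22 CPM in Parental to 2.24 ± 1.49 in M1 and 1.17 ± 0.458 in M2 (changes -2.44 and -3.36). The region at its other side did not differ beyond the spread (-0.40 and 0.33, adjusted p 0.3251 and 0.3512).

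The hair keratin part moved least in M1 and in both directions in M2. Of its 15 regions, 2 rose and none fell in M1 (13.3% called; background 42.4%; median 0.05), and 5 rose and 3 fell in M2 (53.3% called; background 67%; median 0.32; 4 and 4 with the windows removed). At the KRT34 promoter window (chr17:41382438-41382740) the libraries gave 0.816 and 0.339 CPM in Parental, 3.15 and 2.09 in E, 2.85 and 2.23 in EM1, 0.154 and 0.468 in EM2, 5.91 and 4.03 in EM3, 2.76 and 4.49 in M1, and 14.1 and 20.1 in M2. Parental and EM2 were lowest, M2 was above all others, and the E, EM1, EM3 and M1 libraries lay between. The changes were 4.88 ± 0.51 in M2 (adjusted p 3.407e-06), 2.66 ± 0.53 in M1 (0.00107) and 3.11 ± 0.52 in EM3 (0.008683). The E change of 2.17 (0.02423) was not called without E replicate 1 (1.85), and the EM3 call was lost without EM3 replicate 1, Parental replicate 1 or Parental replicate 2.

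Another KRT34 region, inside the gene, separated the EM clones. It measured 4.81 and 3.56 CPM in Parental, 12 and 12.4 in EM1, 0.848 and 0.624 in EM2, 16 and 14 in EM3, 6.80 and 7.20 in M1, and 10.9 and 21.1 in M2. EM2 fell by 2.49 ± 0.42 (adjusted p 0.002721), and EM3 rose by 1.84 ± 0.33 (0.0124), a call lost without any 1 of the EM3 or Parental libraries. M2 rose by 1.94 ± 0.34 (0.0001965). KRT37, a neighbouring hair keratin, had 14.3 and 17.1 CPM in M2 and at most 5.46 in any other library, a rise of 2.53 ± 0.39 in M2 (8.277e-05).

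Outside the basal part, the 2 lowest M2 changes were in the type II hair genes. The region inside KRT81 (chr12:52288169-52288458), which also lies within KRT86 as RefSeq draws it, measured 12.7 and 13.4 CPM in Parental, 7.28 and 7.58 in E, 13.5 and 8.58 in EM1, 19.2 and 12.6 in EM2, 10.9 and 9.47 in EM3, 13.6 and 12.1 in M1, and 0.458 and 0.229 in M2. The M2 libraries were far below all others, with a change of -5.29 ± 0.42 (adjusted p 3.24e-07) and of -5.26 ± 0.42 against M1 (7.123e-07). A region inside KRT86 fell with it in M2 (-3.72, 2.592e-05) and another rose (1.78, 0.002795). The KRT86 region with the highest level of the part measured 88.5 ± 4.02 CPM in Parental and 116 ± 35.1 in M2 and was called only in M2 against M1 (0.59, 0.01397; -0.13 with the windows removed).

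KRT85, a hair matrix keratin, stood out in M1. Its region, 1146 bp outside the gene, had 11.8 and 7.33 CPM in M1 and at most 3.93 in any other library. M1 lay above Parental by 4.16 ± 1.07 (adjusted p 0.006555) and M2 below M1 by -4.62 ± 1.13 (0.003706). The M1 call was lost without Parental replicate 1 (3.62) and the M2 against M1 call without M2 replicate 2 (-4.05). The only keratin-associated protein gene nearest to a member was KRTAP4-9, a hair matrix protein, where EM2 fell by 1.62 ± 0.42 (0.02888) from 3.47 ± 0.349 to 1.12 ± 0.0636 CPM, a call lost without any 1 of the EM2 or Parental libraries.

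**Figure D5:**
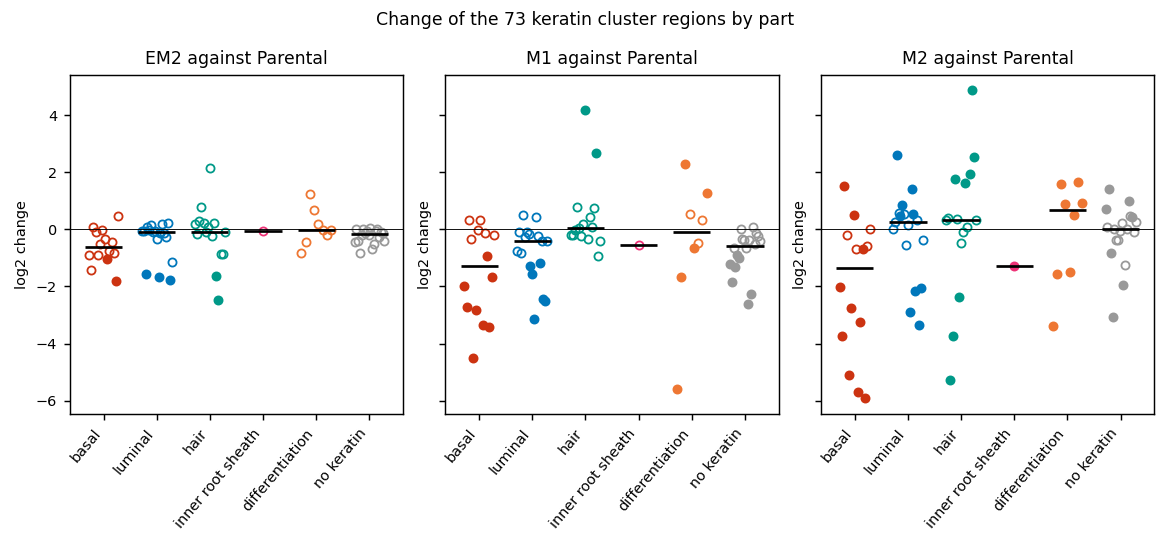
Log2 change against Parental of the 73 regions by part in EM2, M1 and M2 (filled points called, open points not called, bars are medians over the part). The basal medians are -0.64, -1.29 and -1.36, and the hair medians are -0.08, 0.05 and 0.32.

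The differentiation keratins, which belong to maturing layers of stratified epithelia, had 8 regions. In M1, 2 rose and 3 fell (background 19% higher and 23.4% lower), and in M2, 5 rose and 3 fell (background 32.2% higher and 34.9% lower; 1 rose and 3 fell with the windows removed). At KRT77, a keratin of skin glands, the region 1439 bp outside the gene held 3 counts in M1 against 148 in Parental, a ratio of 53.1 (exact 95% interval 17.8 to 260, counting error only), and M2 was lower by a log2 change of -3.40 ± 0.46 (adjusted p 2.682e-05). At KRT3, a cornea keratin, both M clones fell (-1.65 and -1.58). At KRT78 the region 30 bp outside the gene rose by 2.28 in M1 and 1.58 in M2, whereas a region 10996 bp away fell by 0.65 and 1.48. With the windows removed, the rise in M2 (0.96, adjusted p 0.1101) and the fall in M1 (-0.55, 0.1264) were not called. KRT13, a keratin of internal stratified epithelia, rose in both M clones at the region 561 bp outside the gene (1.26 and 0.92), of which the M2 value was 0.57 and not called with the windows removed. The inner root sheath part was 1 region near KRT72, which fell in M2 by 1.30 (adjusted p 0.005762). Without M2 replicate 2 that value was -0.75 and not called.

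Of the 18 regions nearest a gene that is no keratin, 7 fell and none rose in M1, and 4 rose and 3 fell in M2 (2 rose and 8 fell with the windows removed). The share called in either direction was 38.9% in each, below the background of 42.4% in M1 and 67% in M2. All the M1 calls were falls, and 38.9% was above the background of falls alone, 23.4%. In M2 the backgrounds by direction were 32.2% higher and 34.9% lower. They include LINC00592 and LINC02874, noncoding RNA genes between KRT80 and KRT7, where region chr12:52217181-52217603 fell by 0.91 in M1 and by 3.08 in M2. At LOC105371777, between KRT20 and KRT23, M1 alone among the clones was called lower at chr17:40902020-40902321 (2.87 and 1.92 CPM against 10.6 and 11.8 in Parental; change -2.25, adjusted p 0.0004346), and M2 lay above it by 2.26 (0.0003441).

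Summed over its regions, the basal part fell from 275.5 ± 13.4 CPM in Parental to 138.7 ± 4.96 in M1 and 159.6 ± 3.75 in M2. The basal sums of EM1, EM2 and EM3 were 209.2 ± 3.09, 192.7 ± 42.5 and 198 ± 15.8. Those of E replicate 1 and E replicate 2 were 214.8 and 304.9. The luminal part had 442 ± 25.8 in Parental, 282.8 ± 36.9 in M1 and 503 ± 20.9 in M2. The hair part had 193.7 ± 3.35, 191.5 ± 7.88 and 275 ± 52.1. Among these 3 sums, M1 was below Parental in the basal and luminal ones, and M2 in the basal one. The sums keep the window medians of M2, 0.65 and 0.38. Of the luminal regions, 5 rose and 4 fell in M2, or 2 and 5 with the windows removed. Before that removal KRT80 regions were among the rises, as at chr12:52197628-52198426 (34.5 CPM in Parental and 62.2 in M2). With the windows removed the M2 change at this region was 0.23 and not called (edgeR adjusted p 0.4648). These sums are descriptions with no test.

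By cluster, M2 against M1 had 12 regions higher and 0 lower among the 23 of the type I cluster (median log2 change 0.73). Over all regions tested, 27.2% were higher and 29.1% lower in this comparison. In the type II cluster 19 were higher and 11 lower (median 0.28). The flanks within 1 Mb outside the clusters, 194 regions, had 96 higher and 26 lower (median 0.63). The excess of higher calls was thus also seen outside the clusters. With the windows removed, the 2 clusters together had 11 higher and 16 lower. In M1 against Parental the flanks had 17 higher (background 19%) and 44 lower (background 23.4%) with a median of -0.01, beside the cluster median of -0.39. At the bounds of the rule, the first region inside the type II cluster changed by 0.01 in M2 and its neighbour outside by 0.43, and the last inside changed by -2.17 and its neighbour outside by 0.32. In the type I cluster these values were 0.23 and 0.70 at the first bound, and 0 and 0.47 at the last.

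The 3 calls of E against Parental were lost without E replicate 1, and also without either Parental library, where 0 regions were called. Without E replicate 1 the changes at the KRT34, KRT19 and LINC00592 regions were 1.85, -1.52 and -0.99 (adjusted p 0.1258, 0.1353 and 0.1404). At the KRT86 region chr12:52308308-52308795 the change was then -2.41. That value rests on E replicate 2 alone, which held 9 counts there, where E replicate 1 held 41.

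Genes that anchor keratin filaments or switch keratin genes were read from the regions within 1 kb of their ends. Of 22 regions at 19 genes of desmosomes, hemidesmosomes and their laminin ligand, 16 fell and none rose in M1 (background 23.4% lower and 19% higher), and 14 fell and 2 rose in M2 (background 34.9% lower and 32.2% higher). DSG3, a desmosomal cadherin of basal epithelium, went from 22.7 CPM in Parental to 0.457 in M1 and 0.305 in M2, and PKP2, a desmosomal plaque protein, from 62.1 to 9.57 and 0.458. DST, a linker of filaments to hemidesmosomes, rose by 0.47 in M2, and PLEC, another such linker, had 0.29 and was not called. Of 18 regions at 13 regulator genes, 9 fell and none rose in M1, and 12 fell and 1 rose in M2, against the same backgrounds. ELF3, an epithelial ETS factor, changed by -3.24 and -5.46, OVOL2 by -3.29 and -4.43 and ZNF750, a factor of epidermal differentiation, by -4.14 and -5.90, while GRHL3 was called in neither (0.29 and 0.32). TFAP2A, whose AP-2 protein can bind keratin promoters, changed by -0.83 in M1 and -6.87 in M2 at its more open region.

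Other intermediate filament genes moved the opposite way at VIM, the filament gene of mesenchymal cells. Of the 8 regions at 5 such genes, 4 rose and none fell in M1 (background 19% higher), and 6 rose and 2 fell in M2 (background 32.2% higher and 34.9% lower). The 3 VIM regions rose by 1.33, 2.14 and 4.95 in M1 and by 1.63, 1.94 and 5.99 in M2. The most changed of them stood at 0.702 CPM in Parental, 4.67 in E, 4.68 in EM1, 5.31 in EM2 and 7.66 in EM3. It stood at 22.1 in M1 and 45.1 in M2, and every clone was called higher than Parental there. The E value includes E replicate 1, the library with M2-like counts. LMNB1, a nuclear lamina gene, rose by 0.52 and 1.11, and NEFL, a neurofilament gene, had 0.23 (adjusted p 0.4668) and -4.85 (1.191e-07). The 5 regions of the epithelial markers CDH1, EPCAM, ESRP1 and GRHL2, the last also a regulator above, all fell in both M clones (background 23.4% lower in M1 and 34.9% in M2). Of 10 regions at 5 mesenchymal marker genes, VIM among them, 7 rose and none fell in M1 (background 19% higher). In M2, 5 rose (background 32.2%) and 1 fell, a PDGFRB region (-1.73). No ZEB1 or COL1A1 region was called in M2. The blood markers had 3 regions, of which none was called in M1 (background 42.4%) and 2 were lower in M2 (background 34.9%). No endothelial marker had a region.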

How the data were processed

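The authors deposited 1 table of raw counts per library in consensus regions (hg38). Per the submitters' processing notes the aligner Bowtie2 2.2.6, the peak caller MACS2 2.1.1, the counter featureCounts, and Picard, deepTools, bcl2fastq 2.20.0.422 and cutadapt 1.9.1 were among the tools; the merging of regions into 1 list is not stated there. Members, parts and gene lists were chosen with earlier results of these data known. Counts were scaled by TMM, filtered with filterByExpr (minimum count 10) and tested with edgeR 4.0.16 (R 4.3.3) in a model of 7 group means. Groups came from the labels. Each region took the part of its nearest gene in a RefSeq table of GRCh38.p14. Regions named were the most open gene-end region of each listed keratin, the 5 highest and 5 lowest called changes per test, and the most open region per part; further members were named after their values were seen. Intervals are exact and cover counting error only. The test was checked on simulated counts. Alternatives are given in the closing section. The authors' peak lists were not used here.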

Additional observations from a re-analysis of the deposited data

Results flagged for a closer look

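A region inside LINC02874 (chr12:52207901-52208250), between KRT80 and KRT7, was called in opposite directions in the M clones. It measured 14.6 and 13.8 CPM in Parental, 7.23 and 5.09 in M1, and 25.8 and 20.9 in M2, so the 3 groups did not overlap. The log2 change was -1.22 in M1 (edgeR adjusted p 0.002556) and 0.71 in M2 (0.02595), and the test of M2 against M1 gave 1.93 (6.68e-05). The 10 Mb window around it had a median change of 0.65 in M2, and with the windows removed the M2 change at LINC02874 was 0.10 and not called (adjusted p 0.7855).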

How the results depend on the processing

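The counts of called regions over all 7 groups (52), in M1 (28) and in M2 (43) stayed within 1.5 times under every alternative run, with ranges on leaving out 1 library of 44 to 55, 25 to 30 and 34 to 46. M2 against M1 went from 42 to 27 with the 10 Mb window medians removed, and ranged from 28 to 43 on leaving out 1 library, the lowest without M2 replicate 2. Fitting only the libraries compared gave 1 for E (3 in the report), 2 for EM1 (0), 11 for EM2 (7) and 6 for EM3 (3). The DESeq2 test gave 3 for EM1 and 5 for EM3. Leaving out 1 library gave 0 to 3 for E, 0 to 1 for EM1, 3 to 8 for EM2 and 0 to 4 for EM3. Without either Parental library E and EM3 had 0 called. With the replicate number as a block the counts were 6 for E, 2 for EM1, 12 for EM2 and 8 for EM3. The replicate differences of the 21 pairs of groups correlated at 0.02 to 0.59 (median 0.27), 19 of them over 0.1, a hint from the data, not the design, of a shared replicate effect; the labels name no shared batch or day.

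Of 72 called changes at the 35 named regions, 43 kept their call in every alternative run. With the window medians removed, the sign turned in M2 against Parental at the region shared by KRT8 and KRT18 (KRT8 52949605, -0.05) and at KRT80 52191864 (-0.13), and in M2 against M1 at KRT7 52243852 (-0.01) and KRT86 52280148 (-0.13). At KRT16 41612895, M2 against Parental was -1.08 with loess offsets and called. The cause was not tested. Library totals moved the median log2 change of all regions by -0.11 (M2 against Parental) and -0.15 (M2 against M1), and loess offsets by 0.16 and 0.14. With parts limited to regions within 1 kb of an end of their gene, 3 of 4 basal regions fell in each M clone. The background was 23.4% lower in M1 and 34.9% in M2. With the nearest keratin gene in place of the nearest gene, 12 of 28 luminal regions fell in M1 (background 23.4%). That alternative was chosen after seeing the data.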
